A study of Danio rerio with 40 samples.

Results

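Single cells sorted from the adult zebrafish ventricle for a reporter of the epicardial gene tcf21 were divided by their reads of twist1a (ENSDARG00000030402), and the expression of all other genes was set side by side. A cell entered the comparison if at least 2000 genes had 5 or more expected reads, the level at which a gene was called detected, and if TCF21 (ENSDARG00000036869) was detected. This held for 24 of the 40 cells of the series. Of these, 12 had 5 or more reads of twist1a and are called twist1a-positive, and 12 had fewer and are called twist1a-negative. The division used the measured values of twist1a, TCF21 and the number of genes detected, so the levels of twist1a and TCF21 on the sides are a description of the rule and not a finding.

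All cells belong to 1 labelled group. They came from ventricles of fish of the EK strain at 6 months of age that carried tcf21:nucEGFP, a transgene in which tcf21 regulatory sequence drives a green fluorescent protein in the nucleus. Green cells that excluded the dead-cell dye propidium iodide were sorted and captured by Fluidigm C1, a microfluidic chip with a separate chamber for each cell. No treatment, animal, batch or day was named for any cell, and the number of fish was not given. The cells are therefore parts of 1 sample and not replicates: differences are described without tests or p-values, and ranges describe the spread between these cells.

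The epicardium is the cell layer that covers the heart. In development some of its cells lose their epithelial contacts, enter the heart wall and give rise to fibroblasts and mural cells, a step called epithelial to mesenchymal transition. Twist1 is a basic helix-loop-helix (bHLH) transcription factor that binds DNA as a dimer, with E proteins or with Hand2 among its partners, and in mammals it is a well-studied regulator of that transition. Zebrafish carry the copies twist1a and twist1b. Tcf21, which marks the cells here, is a bHLH factor too.

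Levels are given as CPM, the reads of a gene scaled to the same total in every cell. In the positive cells twist1a ranged from 1.37 CPM in cell 15 to 648.2 CPM in cell 26, with a median of 136.9 CPM, and 9 of the 12 cells had 50 CPM or more. In the negative cells 9 of 12 had 0 reads. Just outside the threshold lay cells 18, 31 and 35 with 4, 3 and 1 reads, and just inside it cells 15 and 16 with 6 and 48 reads. The positive side thus holds cell 15, whose level was close to that of cell 18 on the negative side (1.29 CPM), while the other 11 positive cells had at least 12.7 CPM. TCF21 overlapped widely between the sides. It ranged from 44.9 to 1584 CPM in positive cells, with a median of 321.2 CPM, and from 37.4 to 1364 CPM in negative cells, with a median of 351.1 CPM.

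**Figure D1:**
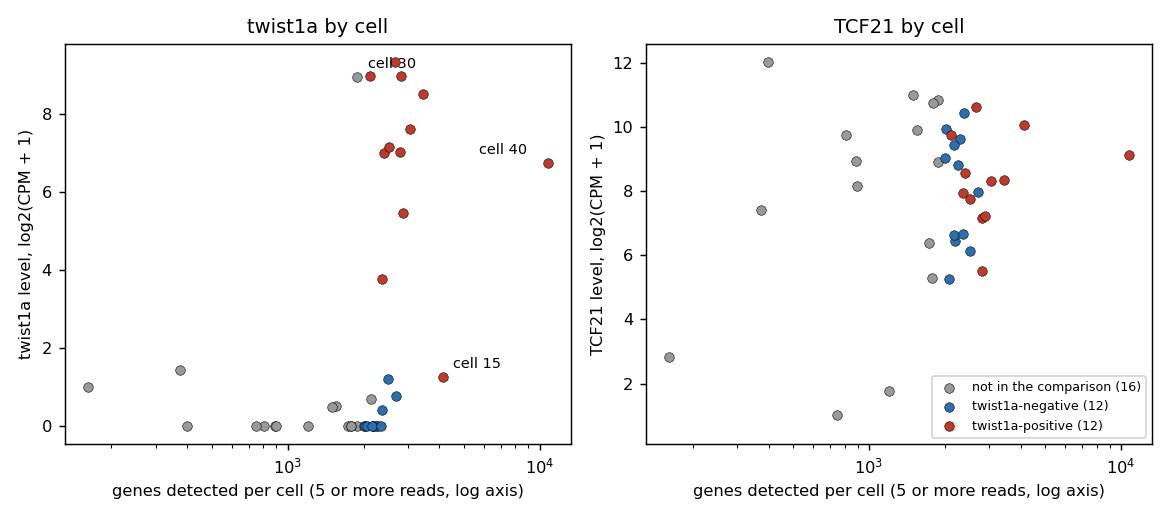
Level of twist1a (left) and TCF21 (right) as log2(CPM + 1) in each of the 40 cells against the number of genes detected per cell on a log axis. The positive cells reach up to 648.2 CPM of twist1a, TCF21 overlaps between the sides, and cell 30, which is not in the comparison, has 501.3 CPM of twist1a.

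The sides also differed in how much was read from each cell. Total reads had a median of 3580822 in positive cells (2400523 to 5695770) and 3001699.5 in negative cells (1364664 to 4347066). Genes detected had a median of 2808 in positive cells (2116 to 10792) and 2217 in negative cells (2004 to 2696), and 7 of the 12 positive cells exceeded every negative cell. With every cell thinned to 1364626 reads, the medians were 2300.5 and 1906 genes. Cell 40, with 10792 genes, stood apart from the next highest cell, 15, with 4119. Each difference between the sides below is therefore the coefficient of side in a least squares fit of log2(CPM + 1) with log2 of genes detected as a covariate, positive minus negative. The median share of mitochondrial reads was 1.76% in positive and 1.51% in negative cells. Immediate early genes, which respond to a stimulus within minutes, held 5.21% (4.11 to 9.52) and 7.20% (2.996 to 12.6). These values moved with the sides to different extents, and their part in the differences was not tested.

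Of 33737 genes in the table, 4362 were detected in at least 5 of the 24 cells and were compared. A gene was counted as higher in positive cells if its adjusted difference was at least 3 with all cells and at least 3 again without cell 40, and as lower at -3 in the same way. By this rule of size 63 genes, or 1.44% of those compared, were higher, twist1a among them by construction, and 10 genes, or 0.229%, were lower. The median over all compared genes was -0.02, and 80% of the differences lay between -1.30 and 1.67. Among the 62 further higher genes, no gene had every positive cell above every negative cell, and the same was true of all compared genes other than twist1a. A total of 6 of the 62 were detected in no negative cell. The same count over all compared genes is not given here, so the 6 are not read as an excess. A gene detected on 1 side alone had to differ to be compared at all. A gene detected in fewer than 5 cells of 1 side also needed cells of the other side to be compared. In the 1707 genes detected in at least 5 cells of each side, 21 (1.23%) were higher and 6 (0.351%) lower. The rule gives no error rate. The calls also rested on single cells. Only 18 of the 63 higher genes and 3 of the 10 lower ones met the rule in all 24 fits that left out 1 cell. A single such fit kept 43 to 63 of the higher genes and 5 to 10 of the lower ones. The 18 include twist1a, by construction.

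**Figure D2:**
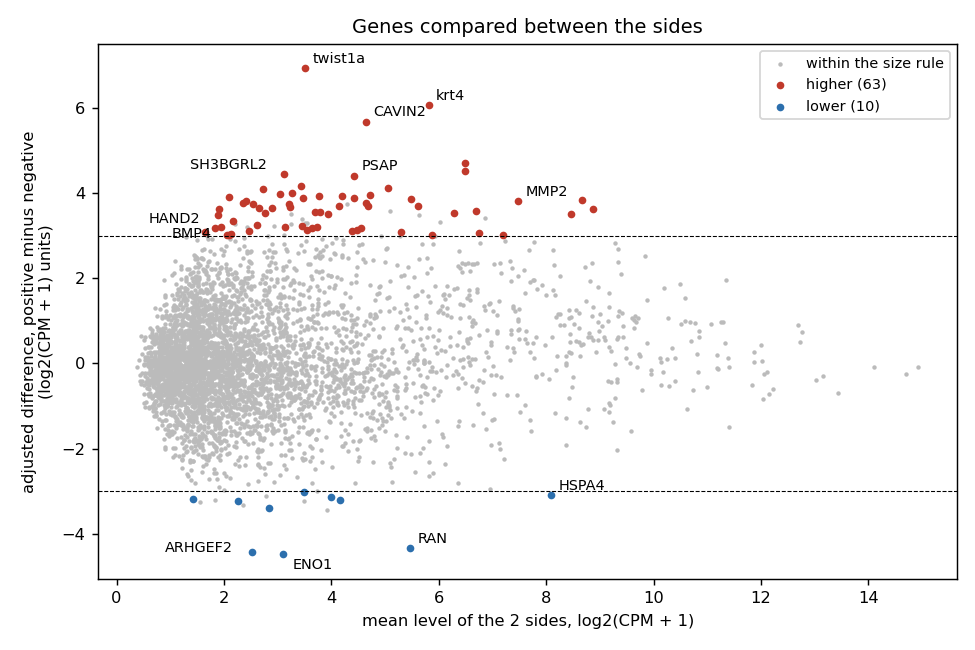
Adjusted difference of each of the 4362 compared genes (positive minus negative, log2(CPM + 1) units) against its mean level over the sides. Dashed lines mark 3 and -3; 63 genes are higher and 10 lower with and without cell 40, and grey points beyond a line pass it only with cell 40 included.

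The gene with the largest difference after twist1a was krt4 (ENSDARG00000017624), which encodes a keratin, an intermediate filament protein of epithelia. Its level in positive cells ranged from 1.72 to 11535 CPM with a median of 1955 CPM, and in negative cells from 0 to 789.6 CPM with a median of 1.61 CPM. All 12 positive cells had it detected (exact binomial 95% interval 73.5 to 100%), as did 6 of 12 negative cells (21.1 to 78.9%). In 8 positive cells the level was above that of every negative cell, and no negative cell reached the positive median. The adjusted difference was 6.06 with all cells and 4.70 without cell 40, from 4.70 to 7.22 over the fits that left out 1 cell. With positive cells defined at 50 CPM of twist1a it was 3.34 and no longer met the rule. These intervals and those below cover the counting of cells only.

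CAVIN2 (ENSDARG00000071196) followed, which encodes a coat protein of caveolae, flask-shaped pits of the cell membrane. Positive cells had 0.34 to 3809 CPM with a median of 623.0 CPM, and negative cells 0 to 450.4 CPM with a median of 0.73 CPM. The highest positive level was in cell 15, which had the least twist1a of that side, and the next was 1505 CPM. CAVIN2 was detected in 10 of 12 positive cells (51.6 to 97.9%) and in 3 of 12 negative cells, where cell 19 had the highest level and the next had 5.13 CPM. The adjusted difference was 5.67, from 5.26 to 6.51 over the fits that left out 1 cell, and 2.95 with positive cells defined at 50 CPM of twist1a. EHD2 (ENSDARG00000040362), an ATPase gene of the caveola neck, was detected in 9 positive and 4 negative cells with a difference of 2.55, within the size rule. CAVIN1 (ENSDARG00000059362) had a difference of 0.34 and was detected in 4 positive cells and 1 negative cell. CAV2, a caveolin gene, was detected in 3 positive cells and in no negative cell, which is too few to be compared. A count of 0 of 12 cells allows a share of up to 26.5% by the exact interval. The remaining compared caveola gene, cavin4b, was detected in 9 positive and 4 negative cells with a difference of -0.15. Of 4 compared caveola genes among 11 in the table, 1 was higher and none lower, beside 1.44% and 0.229% of all compared genes. The caveolin gene cav1 had no symbol in the name table used and was not analysed.

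Further genes were named for the size of their difference alone, and the cytoskeleton list had 0 of 21 compared genes higher. SVIL, which encodes the actin and myosin binding protein supervillin, was detected in 6 positive and no negative cells. SVIL thus entered the comparison through the positive side alone. Its level reached 1331 CPM in positive cells with a median of 14.9 CPM, and 0.41 CPM at most in negative cells, a difference of 3.89. RAPH1, the gene of lamellipodin, a protein of the leading edge of moving cells, was detected in 9 and 3 cells with a difference of 3.92. Its highest level of all was in a negative cell, 37, at 3179 CPM, and no positive cell was above it. The dynein light chain gene dynll1 was detected in 9 positive cells and 1 negative cell, at 0 to 649.5 CPM (median 50.7) and 0 to 19.3 CPM (median 0), with a difference of 4.08. SH3BGRL2, a small protein gene, was detected in 8 and 2 cells, at up to 3678 and 40.4 CPM, with a difference of 4.43. CPNE1, which encodes the calcium-dependent membrane binding protein copine 1, was detected in 10 and 4 cells with a difference of 3.93, and no positive cell was above the highest negative cell.

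The remaining genes named for their size had varied known roles. PSAP, the precursor of the saposins that help lysosomes break down sphingolipids, was detected in 10 positive and 3 negative cells at medians of 180.8 and 0.63 CPM, a difference of 4.40. ALDH9A1, an aldehyde dehydrogenase gene, was detected in 10 and 4 cells with a difference of 4.12. ACKR4, a scavenging receptor for chemokines, was detected in 10 positive cells and in 1 negative cell, at medians of 167.6 and 0.62 CPM. The highest negative level of ACKR4 was 24.9 CPM in cell 19, and 7 positive cells were above it, with a difference of 3.61 without cell 40. The highest positive level of ACKR4, 876.8 CPM, was in cell 15, which had the least twist1a. SOSTDC1, which encodes a secreted antagonist of BMP and Wnt signals, was detected in 9 and 5 cells at medians of 690.2 and 0.54 CPM, a difference of 3.96. It was 1.83 with positive cells defined at 50 CPM of twist1a. rca2.1, a gene of the regulators of complement activation, had a difference of 4.16 with 9 and 2 cells. The uncharacterised genes si:ch211-105c13.3 and si:dkey-276j7.1 had differences of 4.69 and 3.96. The first was present at 97.1 CPM or more in every positive cell. PSAP, ALDH9A1, ACKR4, rca2.1 and si:dkey-276j7.1 were detected in fewer than 5 negative cells each and also needed positive cells to be compared. The same was true of CAVIN2, SH3BGRL2, dynll1, RAPH1 and CPNE1.

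The call of several of these genes rested on 1 cell. Without cell 21, dynll1 (3.49) and rca2.1 (3.63) no longer met the rule, since each was under 3 once cell 40 was left out as well. The same held for dynll1 without cell 22 (3.43), for SVIL without cell 16 (3.10) and for ACKR4 without cell 28 (3.46). These 4 genes also missed the rule at any read of twist1a (ACKR4 2.39, dynll1 2.59, rca2.1 2.31, SVIL 2.73). With 10 CPM in place of 1 CPM added before the log2 they had 2.46, 2.34, 2.63 and 2.45. At 20 reads ACKR4 had 2.77, and without cell 40 dynll1 had 2.81 and rca2.1 2.73. At 50 CPM of twist1a ACKR4 had 2.43. krt4, CAVIN2, SH3BGRL2, PSAP, ALDH9A1, CPNE1, RAPH1, SOSTDC1 and the 2 uncharacterised genes met the rule in each of the 24 fits that left out 1 cell. With positive cells defined at 50 CPM of twist1a, however, 9 of these 10 genes no longer met it, si:dkey-276j7.1 being the exception. At any read of twist1a si:dkey-276j7.1 had 2.40, SH3BGRL2 2.96 and RAPH1 2.32. There krt4 (4.81) and CAVIN2 (3.40) fell under 3 once cell 40 was left out as well, while the others of the 10 met the rule. At 20 reads SOSTDC1 had 2.93, and ALDH9A1 2.98 without cell 40, while the others met it. For si:dkey-276j7.1, 1 positive cell was above its highest negative cell, 3 (1734 CPM). Without cells 15, 16 and 18, RAPH1 (1.65) and CPNE1 (1.96) fell under 3 once cell 40 was left out as well. With 10 CPM in place of 1 CPM added before the log2, PSAP had 2.77, SOSTDC1 2.71 and RAPH1 2.555. There si:dkey-276j7.1 had 2.53, ALDH9A1 2.50 and CPNE1 2.38, and the others of the 10 still met the rule.

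**Figure D3:**
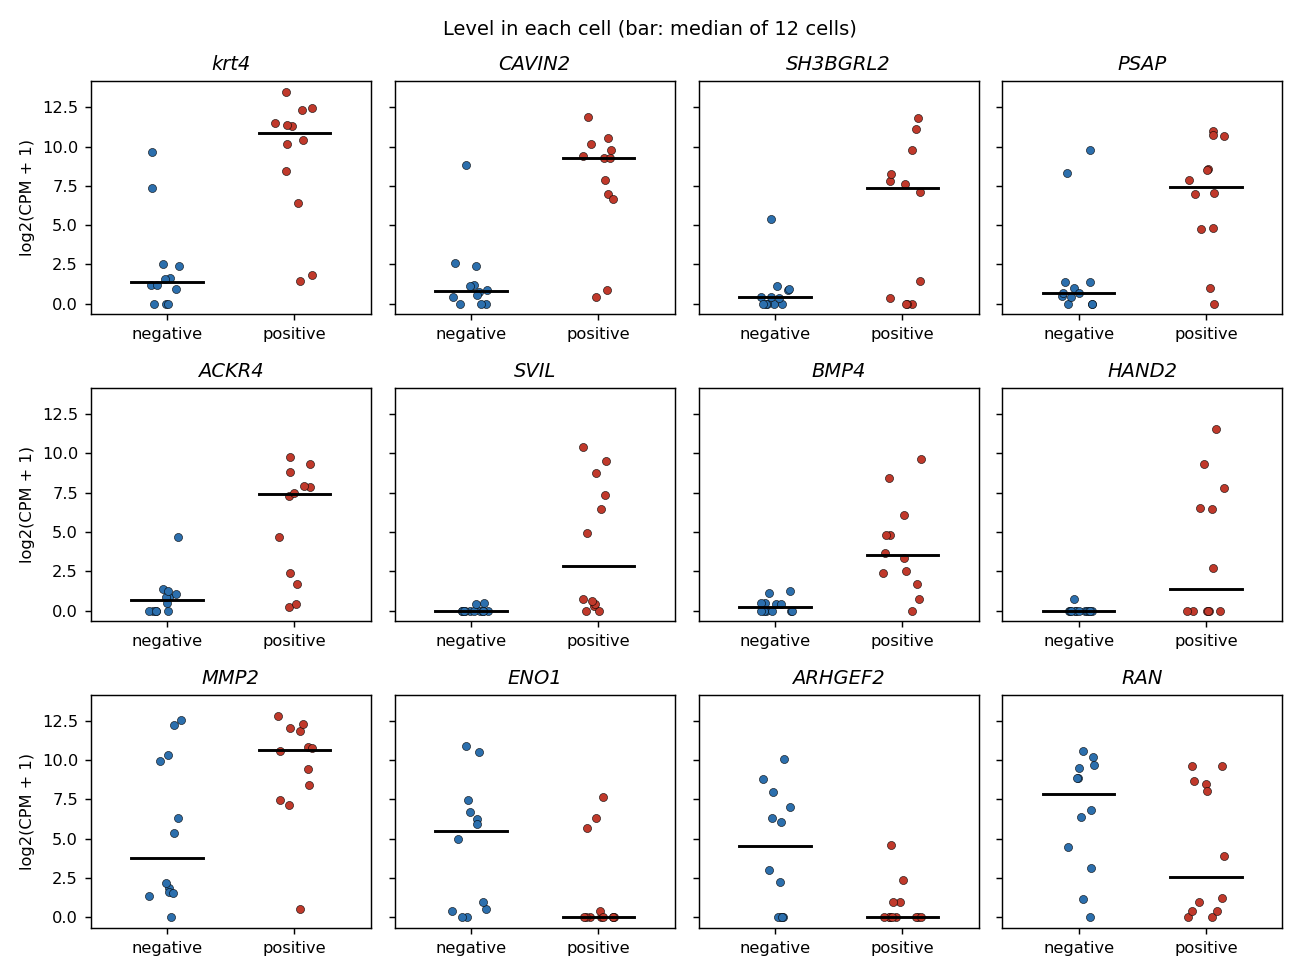
Level as log2(CPM + 1) of 12 named genes in each of the 12 negative and 12 positive cells, with the median as a bar. For krt4, CAVIN2 and ACKR4 most positive cells lie above nearly all negative cells, whereas the sides of MMP2 and RAN overlap over most of their range.

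Only 10 genes were lower in positive cells by the rule. ENO1, which encodes the glycolytic enzyme enolase 1, was detected in 3 positive and 7 negative cells. Its positive cells ranged from 0 to 197.2 CPM with a median of 0, and its negative cells from 0 to 1874 CPM with a median of 46.1 CPM, a difference of -4.48 (-2.88 without the covariate). ARHGEF2, an exchange factor gene for the GTPase RhoA, was detected in 2 and 8 cells at up to 23.4 and 1068 CPM, with a difference of -4.43. RAN, the GTPase gene of nuclear transport, was detected in 7 and 10 cells at medians of 7.75 and 287.8 CPM, with a difference of -4.34, but -2.37 without the covariate. Without the covariate, only ARHGEF2 (-3.55) of the 10 lower genes met the rule. With 10 CPM in place of 1 CPM added before the log2, none of the 10 did. ENO1, ARHGEF2 and RAN met the rule, with the covariate, in every fit that left out 1 cell. At any read of twist1a none of them met it: RAN had -1.77, ARHGEF2 -2.48, and ENO1 -2.82 without cell 40. ARHGEF2 also missed it with positive cells defined at 50 CPM of twist1a (-2.94), and ENO1 at 20 reads (-2.997 without cell 40).

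The other named lower genes did not meet the rule in every fit that left out 1 cell, and none met it without the covariate. HSPA4, a co-chaperone of the Hsp110 class, was detected in 10 and 12 cells at medians of 254.8 and 1627 CPM, a difference of -3.09. The call of HSPA4 was lost without any of 10 cells (8, 12, 13, 16, 18, 19, 21, 25, 29 or 39), with -2.12 without cell 21. BOC, a Hedgehog co-receptor gene, was detected in 5 cells of each side, with a difference of -3.38 and a call lost without any of 10 cells, with -2.63 without cell 35. MKNK2, a kinase gene of the translation initiation factor eIF4E, had -3.23, and -2.70 without cell 29. amotl2b, an angiomotin family gene, had -3.18 with 1 and 4 cells detected, and fell under the minimum of 5 cells without cell 13, 18, 31, 39 or 40. znf1124 had -3.13, and -2.57 without cell 18. sesn3, which encodes the stress-induced protein sestrin 3, had -3.01, and -2.38 without cell 19.

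No other regulator of mesenchymal transition that could be compared was past the size rule. Of 25 Twist, Snail, Zeb and Prrx family and related transcription factor genes in the table, only 7 could be compared, twist1a among them. The 6 others had a median of 0.57 beside -0.02 over all genes, and 0.25 without cell 40. twist1b, the other Twist1 copy, was detected in 2 cells of each side, and twist2 and twist3 in none. The Zeb gene ZEB1 (ENSDARG00000013207), a repressor of E-cadherin in mammals, was detected in 7 positive cells at up to 207.9 CPM and in no negative cell, with a difference of 2.15 that was 0.92 without cell 40. ZEB1 thus entered the comparison through the positive side alone. PRRX1 (ENSDARG00000033971) was detected in 5 and 2 cells with a difference of 2.03. zeb2a had -0.63 with 8 and 5 cells, and snai1a 0.37 with 4 and 3 cells. snai2 was detected in 1 cell of each side.

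Of 6 compared bHLH partners of Twist factors and Id inhibitors, 1 was higher and none lower, beside 1.44% and 0.229% of all compared genes. The higher gene was HAND2. It was detected in 6 positive cells (21.1 to 78.9%) and in no negative cell. Its levels in positive cells ranged from 0 to 3061 CPM with a median of 2.82 CPM, and in negative cells from 0 to 0.69 CPM. The 6 cells all lay above every negative cell, but HAND2 entered the comparison through the positive side alone. The difference was 3.47, and 2.85, 2.74 and 2.52 without cell 10, 21 or 26. TCF12, an E protein gene, was detected in 9 and 5 cells with a difference of 1.63. Of the Id genes, which bind E proteins and keep them from DNA, ID1 had 1.22, ID2 1.01, id2b 1.48 and ID3 -1.94, all within the rule. The list median was 1.35, 0.69 without cell 40 and 0.05 without cell 21.

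Of 12 compared genes of TGF-beta and BMP signalling, 1 was higher and none lower, beside 1.44% and 0.229% of all compared genes. The higher gene was BMP4. This secreted ligand was detected in 10 of 12 positive cells and in none of the 12 negative cells. It therefore entered the comparison through the positive side alone. Positive cells ranged from 0 to 792.1 CPM with a median of 10.4 CPM, and negative cells from 0 to 1.37 CPM with a median of 0.15 CPM. The 10 cells were all above the highest negative cell, although most had low levels, and with reads thinned to equal depth 8 positive and 0 negative cells were left. With thinned reads the difference was 3.25, but 2.77 without cell 40, so that BMP4 no longer met the rule. The difference of 3.33 was lost as a call without any of 8 cells (5, 9, 10, 15, 18, 22, 31 or 35), with 2.91 without cell 5, and was 1.56 with a pseudocount of 10 CPM. TGFB3 had 2.49 with 8 and 2 cells, FSTL1, a secreted follistatin-like gene, 2.69 with 12 and 11 cells, and the receptor gene BMPR2 -2.34 with 7 and 9 cells.

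Of 12 compared effector genes of mesenchymal transition 1 was higher and none lower, beside 1.44% and 0.229% of all compared genes. Their differences ranged from -2.48 to 3.81 with a median of 0.64. MMP2, which encodes a secreted protease that cuts matrix proteins, was detected in 11 cells of each side. Its median was 1639 CPM in positive cells (0.42 to 7277) and 21.8 CPM in negative cells (0 to 6015), with a difference of 3.81. The ranges overlapped, and 2 negative cells were above the positive median. The difference of MMP2 was 3.28 without cell 21 and 2.99 without cells 12 and 29, and it no longer met the rule in either case. VIM (ENSDARG00000010008), the vimentin gene, had 2.27 with 10 and 8 cells. Among 17 compared fibroblast and collagen matrix genes none passed in either direction, and the list median was 0.46. FN1 (ENSDARG00000006526), the fibronectin gene, was detected in all 24 cells at medians of 5472 and 3171 CPM, with a difference of 1.96, and COL5A1 had 1.80.

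Among epicardial markers other than TCF21, which the rule used, 0 of 11 compared genes were past the size rule. Their median was 0.59, and -0.37 over the same genes without cell 40. TBX18, an epicardial transcription factor gene, was detected in 12 positive and 7 negative cells at medians of 155.5 and 38.4 CPM. Its difference was 2.23, and the highest level of all, 2789 CPM, was in the negative cell 8. The retinoic acid enzyme gene ALDH1A2 was detected in 5 positive cells and 1 negative cell with a difference of 0.72, and podxl, a sialomucin gene of epithelial surfaces, in 4 and 2 cells with 0.03. The list of epithelial junctions and keratins had 11 compared genes among 31 in the table. Of the 11, 10 lay above 0, beside 49.2% of all compared genes. The list median was 1.13, and 0.92 without cell 40. Among these 11, krt4 alone was past the rule, beside 1.44% of all compared genes higher. krt8 had 1.86, krt15 1.69, krt18b 1.52 and krt94 0.54, and the junction gene TJP1 -1.19. krt5, within the rule, was detected in 5 positive cells and 1 negative cell, at up to 19554 and 6.44 CPM. The keratin gene krt18a.1, not on the list, was also higher, with 10 and 4 cells detected. It too needed positive cells to be compared. Its difference was 3.12 to 4.52 over the fits that left out 1 cell. It was 2.33 with a pseudocount of 10 CPM and 2.88 with cells of at least 1000 genes, under the rule in both.

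**Figure D4:**
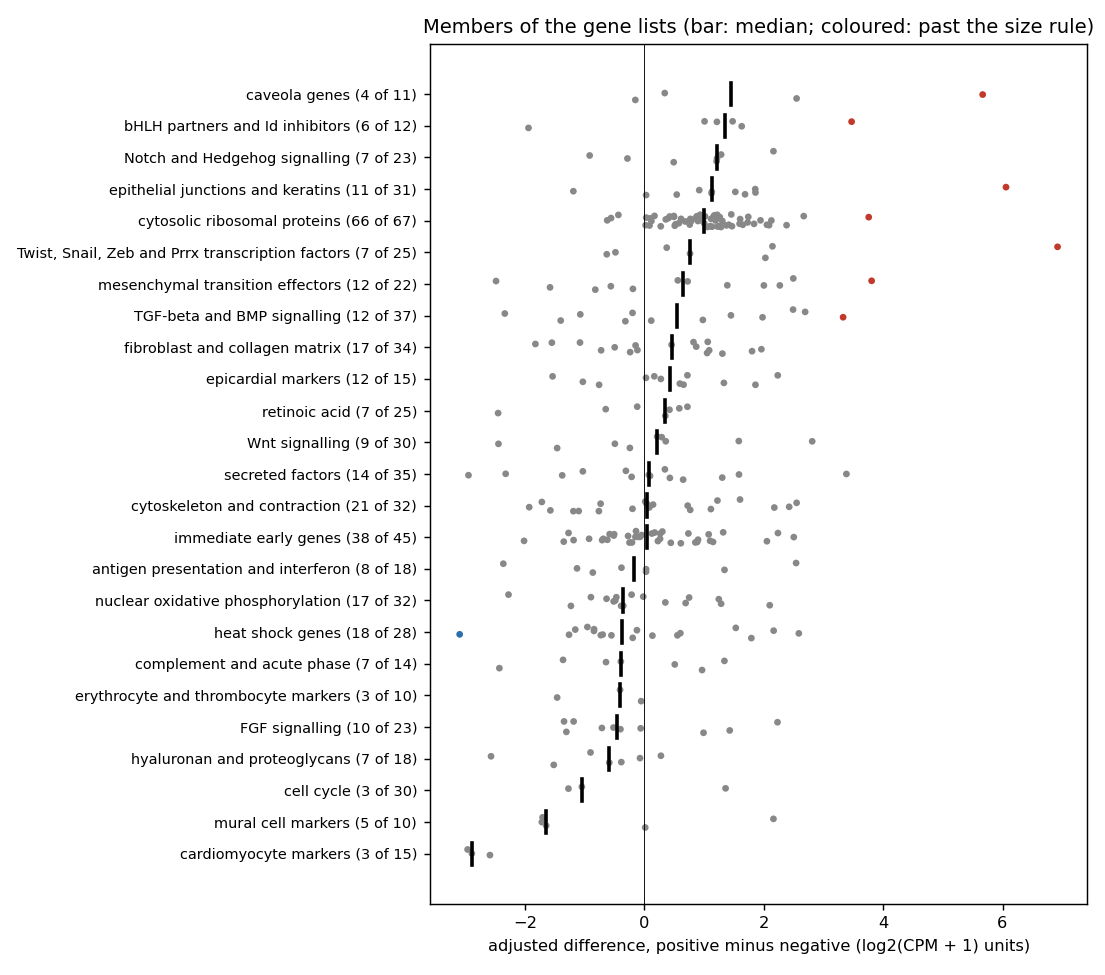
Adjusted differences (positive minus negative, log2(CPM + 1) units) of the compared members of each gene list with at least 3 of them, with the list median as a bar, twist1a and TCF21 included; the numbers give members compared and members in the table. Coloured points are past the size rule: 7 genes of these lists are higher, twist1a included, and HSPA4 is lower.

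Most genes of the cytosolic ribosome had small differences in 1 direction. Of 66 compared ribosomal protein genes, 63 had a difference above 0, beside 49.2% of all compared genes, and the list median was 0.99. RPL11 alone was past the rule, at 3.76, beside 1.44% of all compared genes higher. It was detected in 11 positive and 6 negative cells, and no longer met the rule without cell 21 (3.35). The median share of reads in this list was 6.30% in positive cells (1.88 to 8.96) and 5.11% in negative cells (0.715 to 9.75), so the cells overlapped. The negative cells 29 and 12 had the lowest shares of all, 0.715% and 0.948%. Without these cells the list median was 0.27, and without cell 40 it was 0.56. Immediate early genes had 19 of 38 above 0 and a median of 0.04, and heat shock genes 7 of 18 and a median of -0.37.

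Other lists held no gene past the rule. SOSTDC1 and BOC, which were past it, are on none of the lists. Wnt genes had a median of 0.22 over 9 compared genes, with frzb, a secreted Wnt antagonist, at 2.81 in 8 and 2 cells. Notch and Hedgehog genes had 1.21 over 7, with NOTCH3 at 2.16. FGF genes had -0.46 over 10, hyaluronan and proteoglycan genes -0.59 over 7 with hapln1a at -2.57, and retinoic acid genes 0.35 over 7. PDGF and VEGF genes had -0.39 over 2, complement genes -0.39 over 7 and antigen presentation genes -0.18 over 8. Secreted factor genes had 0.08 over 14, with the axon guidance ligand gene SLIT3 at 3.38 in 9 cells and 1 cell, but 2.09 without cell 40, and the midkine gene MDK (ENSDARG00000036036) at -2.95. Cytoskeletal genes had 0.04 over 21, oxidative phosphorylation genes -0.35 over 17 and cell cycle genes -1.05 over 3.

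Markers of other cell types were summed in each cell. The cardiomyocyte list took up to 0.324% of reads in positive cells, in cell 40, and up to 1.07% in negative cells, in cell 18, with medians of 0.00035% and 0.00111%. Its 3 compared genes of 15, MYL7, actc1a and TNNT2, had differences of -2.96, -2.89 and -2.59, with a list median of -0.70 without cells 18 and 40. The mural cell list took 0.191% and 0.247% at the median, and its 5 compared genes of 10 had a list median of -1.64, or -0.68 without cell 40.

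The remaining marker lists were near 0 in most cells. Of 18 macrophage markers, 14 had 0 reads in every negative cell and 2 in every positive cell, and their summed share reached 0.114% in cell 40 and 0.00053% in negative cells. The number of them detected per cell had a median of 0 on both sides, with at most 12 in a positive and 2 in a negative cell. Endothelial markers reached 0.163% in the positive cell 26 and 0.0397% in the negative cell 35, and 6 and 7 of the 11 genes had 0 reads on the positive and the negative side. Erythrocyte and thrombocyte markers reached 0.0139% and 0.00235%, lymphocyte markers 0.0656% and 0.0236%, and neural, glial and pigment markers 0.0142% and 0.00372%, positive side first. Their highest positive cells were cell 40, cell 26 and cell 40, so these values describe single cells and not the side. Of these lists' 10, 8 and 14 genes, 3, 5 and 11 had 0 reads in every positive cell and 6, 5 and 13 in every negative cell. The part of these cells' RNA in the differences was not tested.

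The number of higher genes detected varied from cell to cell. Each of the 12 positive cells had 37 to 61 of the 62 genes detected, and each negative cell 11 to 31, at medians of 46.5 and 21.5. Of all compared genes, the medians detected were 49.6% in positive and 41.2% in negative cells. The 62 genes were chosen on these cells, so that these counts describe the choice. The positive cell with the fewest was cell 15, which also had the least twist1a and, after cell 40, the most genes detected. The cells left out of the comparison were not used in the choice, and 1 of them, cell 30, had 1896 reads of twist1a (501.3 CPM), with 1880 genes detected and 481.0 CPM of TCF21. It had 31 of the 62 genes detected, or 50%, beside 33.8% of all compared genes. The other 15 cells had 6 to 26. Cells 23 and 32, with 1885 and 1783 genes, had 26 each, or 41.9%, beside 33.9% and 32.8% of all compared genes. Cell 30 had 304 reads of krt4 (80.4 CPM) and 479 of CAVIN2 (126.7 CPM). Both levels were below the positive median and the highest negative cell of the gene. RAPH1 (1828 CPM) and si:ch211-105c13.3 (1786 CPM) were high in it, and it had 4689 reads of MMP2. It had 6 reads of SOSTDC1, 2 of ACKR4, 1 of SVIL and 0 of dynll1, PSAP, rca2.1 and HAND2. Of the genes called lower, it had 1398 CPM of HSPA4, but 0 reads of ENO1 and ARHGEF2.

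**Figure D5:**
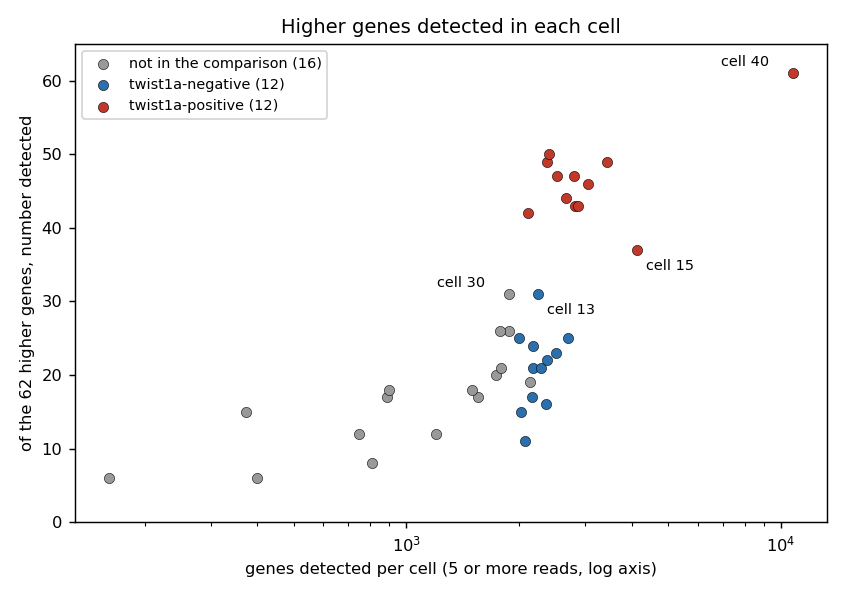
Number of the 62 genes higher in positive cells (twist1a left out) that were detected in each of the 40 cells, against genes detected per cell on a log axis. Positive cells have 37 to 61 and negative cells 11 to 31, as the choice of the genes sets, and cell 30, not used in the choice, has 31.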

How the data were processed

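The authors deposited expected counts, estimates of the reads of each gene in each cell that are not always whole. The submitters' processing notes name Bowtie2, RSEM 1.2.12 and the build Zv9. How each was used, and whether strand was counted, is not stated there. Reads of near-identical copies are divided by estimate, so close paralogs are uncertain one by one. Reads are not independent molecules, since no molecular identifiers are named.

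From these counts CPM over all genes of a cell, log2(CPM + 1), the least squares difference and exact Clopper-Pearson intervals were computed (Python 3.11.15, numpy 2.4.6, scipy 1.17.1; TMM factors with edgeR 4.0.16, on rounded counts). The fit was run on simulated cells with known differences, drawn around 1 mean level per gene. That setting is simpler than these cells, so it checks the calculation and not the rule. Of 33737 genes, 21939 have a symbol in the name table used, and 669 of 807 symbols of the 30 lists were found, exactly, ignoring case, or without the copy letter; a capital symbol can stand for more than 1 copy. Genes named are twist1a, TCF21, members of the lists, and the 15 genes with a symbol of largest difference in each direction past the rule (9 were lower). The higher genes krt18a.1 and CLIC2 are named besides. The cells, lists and rules were chosen with earlier results of these data known. No doublet caller was run on 40 cells.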

Additional observations from a re-analysis of the deposited data

Results flagged for a closer look

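A signal appeared in a cell that the comparison leaves out. Cell 30 had 1896 reads of twist1a, within the range of the positive cells, but its 1880 detected genes are below the minimum of 2000. Of the other 15 cells left out, 10 had 0 reads of twist1a and 5 had 1 to 4.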

How the results depend on the processing

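The main counts were 63 genes higher and 10 lower. They were 128 and 1 without the covariate, 60 and 3 with genes detected not on the log2 scale, 118 and 51 without cells 15, 25 and 40, 8 and 0 with a pseudocount of 10 CPM, and 209 and 97 with a size rule of 2. With positive cells defined at any read, at 20 reads or at 50 CPM of twist1a they were 61 and 30, 65 and 16, and 67 and 27. They were 43 and 4 with cells of at least 1000 genes and 61 and 5 without the TCF21 filter. Without cells 15, 16 and 18, near the twist1a threshold, they were 67 and 11, with 38 of the 63 higher genes kept. Over the fits that left out 1 cell they ranged from 56 to 125 and from 9 to 36; the highest values of both were without cell 40, where the rule has a single fit, and without any other cell they reached 89 and 15. Chosen after seeing the data, leaving out cells 18 and 40 gave 138 and 52, and leaving out cells 12 and 29 gave 56 and 16. The rule also has a single fit without cells 18 and 40 and without cells 15, 25 and 40. Those counts are therefore not on the same rule as the main counts. The cause of the shifts between settings was not tested. Of the 63 higher genes, 54 met the rule without the covariate, 63 with TMM scaling, 62 with median-of-ratios scaling, 54 with thinned reads, 25 with positive cells at 50 CPM and 23 at any read. Of the 10 lower genes, 4 met it with positive cells at 50 CPM, 6 at 20 reads and 1 at any read. All counts of higher genes here include twist1a, whose call the division set. CLIC2, higher in the main fit, reversed to -0.73 at any read of twist1a, but had 1.34 there without cell 40. No paired analysis was possible because the labels give 1 group only. Reads of 0 in a cell show only that twist1a was not detected at this depth.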
